A study of Mus musculus with 13 samples.

Results

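The comparison set the libraries of mice that carried a Setd7 virus and met no adult stress directly against those of mice that carried a GFP virus and went through adult social defeat. It used 8 of the 13 libraries, 4 in each group, and had no control library in common between its arms. Of the 26264 genes in the deposited table, 17755 reached 10 normalized counts in at least 2 of the 13 libraries and were tested. The 8509 genes below that filter included 3670 at 0 in every library. All mice were of the strain written C57BlJ/6 in the labels, and all received a virus into the ventral tegmental area (VTA) at postnatal day 14. The group called Setd7 control received the virus that overexpresses Setd7 and no defeat. The group called GFP defeat received the virus for green fluorescent protein and was exposed to social defeat in adulthood. Each group held 2 female libraries (replicates 1 and 2) and 2 male libraries (replicates 3 and 4). The other 5 libraries, 3 with GFP and no defeat (GFP control) and 2 with Setd7 and defeat (Setd7 defeat), entered the fit for the estimate of spread. The column of Setd7 defeat 1 carries a longer number than its label, and whether it pools animals is not given in the sources used here. Total RNA of punches taken in adulthood was depleted of ribosomal RNA and sequenced. The promoter of the virus, the cells it entered and the age at collection are not given in the sources used here. Because the labels do not say whether libraries of a group came from separate animals, p-values measure only the spread between these libraries, which may be technical. The groups differ in both virus and stress, so a difference between them cannot be assigned to either one alone.

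Dopamine neurons of the VTA, in the ventral midbrain, send axons to the nucleus accumbens and prefrontal cortex and act in reward, motivation and the response to stress. Setd7 is a lysine methyltransferase that places a single methyl group on lysine 4 of histone H3, a mark found at enhancers, and also methylates other proteins such as p53. In social defeat a mouse is repeatedly exposed to an aggressive conspecific, and the procedure is widely used to induce avoidance and other stress-related behaviour. The design asks whether raising Setd7 early in life and adult defeat, each given without the other, left the VTA with different transcript levels.

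The 8 libraries held 30.9 to 48.4 Mreads (megareads) recovered on genes, and the 13 held 26.5 to 50.8 Mreads. Th, which encodes tyrosine hydroxylase, and each of the other 25 dopamine neuron markers were detected in all 8 libraries, as the tissue label requires. Several libraries stood apart in genes of other cell types or of neighbouring brain regions. Setd7 control 4 had high interferon, antigen presentation and lymphocyte transcripts. Setd7 control 3 and GFP defeat 1 had high hypothalamic transcripts, GFP defeat 1 also had low dopamine neuron transcripts, and GFP defeat 4 had high thalamic transcripts. The larger list differences that rest on these libraries are given below with and without them. In bulk tissue, fewer cells of a type and less RNA per cell cannot be told apart.

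Between Setd7 control and GFP defeat few genes, if any, passed the adjusted threshold. No gene (0.0%) had a limma adjusted p under 0.05 over 17755 genes, and edgeR's quasi-likelihood test on the recovered reads also called none (0.0%). DESeq2 called 2 genes (0.0113%), Setd7 and Sox1ot. At an unadjusted p under 0.05, limma gave 481 genes (2.71%), of which 269 (1.52%) were higher and 212 (1.19%) lower in Setd7 control. edgeR gave 515 (2.9%) and DESeq2 562 (3.17%) at the same unadjusted threshold. Where nothing differs, about 5% of genes pass that threshold, so these shares are not above chance. The values of the groups did not overlap at all for 418 genes (2.35%), 195 of them higher (1.1%) and 223 lower (1.26%) in Setd7 control. Full separation arises in 2 of the 70 splits of 4 against 4, a proportion of 0.0286, so that share is not above chance either. Over all genes 51.5% of log2 differences lay above 0 and their median was 0.0048.

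A p-value that misses the threshold does not show that levels are alike, so the 95% confidence interval of each difference was read against a 1.5-fold change. For 11720 genes (66.0%) the whole interval lay within 1.5-fold in either direction. That share depended on the level of the gene. It was 97.8% (2847 of 2911) for genes of 3000 normalized counts or more and 93.9% (7141 of 7605) for genes from 300 up to 3000. It fell to 39.0% (1732 of 4440) for genes from 30 up to 300 counts and to 0.0% for the 2799 genes under 30. The median absolute log2 difference was 0.086, against a median standard deviation within groups of 0.172. In 3258 genes (18.3%) the difference was larger than the gene's own standard deviation within groups, a share for which no chance level was worked out. A fitted difference over 2-fold was found for 317 genes (1.79%), and 255 of these had a mean under 30 counts. Among the 62 with a higher mean, 42 were higher and 20 lower in Setd7 control.

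**Figure D1:**
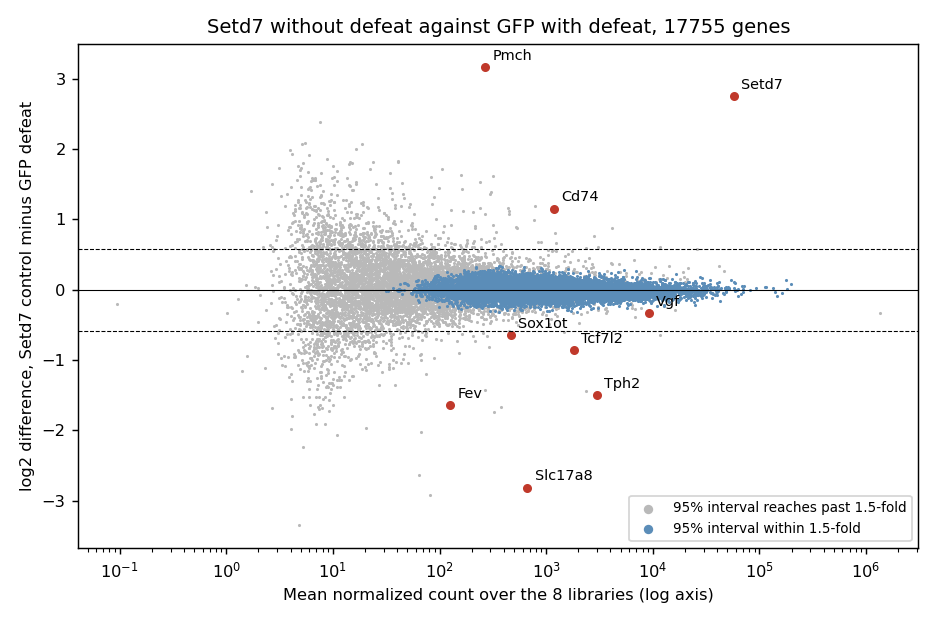
Log2 difference of Setd7 control minus GFP defeat (vertical) against the mean normalized count over the 8 libraries (horizontal, log axis), one point per tested gene, with dashed lines at 1.5-fold and named genes in red. Blue points are the 11720 genes whose 95% interval lies within 1.5-fold. Setd7, at 2.75, stands above the cloud at high counts, and the widest scatter is at low counts.

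Setd7, the gene carried by the virus, had the clearest difference. Normalized counts of 158681, 140236, 81302 and 28587 were measured in Setd7 control 1 to 4. GFP defeat 1 to 4 had 10888, 14060, 12946 and 12799. Every Setd7 library exceeded every GFP library, the lowest by 2.03 times the highest GFP value, and both female Setd7 libraries were above both male ones. The means were 102201 ± 59139 and 12673 ± 1317 (SD, n = 4 each), against 13894 in GFP control. The log2 difference was 2.75 ± 0.37 (SE), a 6.72-fold change with a 95% interval of 3.88 to 11.6. The exact two-sided permutation test over the 70 splits gave p = 0.0286, the smallest that 4 against 4 allows. The adjusted p over all genes was 0.0938 by limma, 0.0678 by edgeR and 2.35e-08 by DESeq2. Setd7 control 4, the library with the lowest Setd7, widened the spread. Without it the log2 difference was 3.25 and the limma adjusted p 1.41e-05. A gene count does not separate viral from endogenous Setd7 reads.

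Sox1ot was the gene with the smallest p among those lower in Setd7 control. It is a long noncoding RNA transcribed across Sox1, a transcription factor gene of neural progenitors and some neurons. It had 378, 345, 358 and 363 normalized counts in Setd7 control and 636, 503, 687 and 458 in GFP defeat. The groups did not overlap, and the Setd7 control values kept within a narrow band. The means were 361 ± 13.5 and 571 ± 108 (SD, n = 4 each), a log2 difference of -0.64 ± 0.12 (SE; 95% interval -0.91 to -0.37). The adjusted p was 0.999 by limma, 0.999 by edgeR and 0.0128 by DESeq2. Across the series the 6 libraries of defeated mice were all at or above 458 and the 7 of undefeated mice all at or below 423, whichever virus they carried. Setd7 defeat 1, whose column number differs from its label, is 1 of those 6, at 648 counts. Sox1ot was chosen by its p in the 8 libraries of the comparison, so their separation follows in part from the choice. Only the 3 GFP control and 2 Setd7 defeat libraries stand outside it. Sox1 itself, added after its values were seen, only just failed to overlap, at 1247 against 1249 counts where the groups came closest. It had 1193, 1226, 1247 and 1083 counts in Setd7 control and 1393, 1328, 1300 and 1249 in GFP defeat, a log2 difference of -0.15 ± 0.08 (SE). The genes overlap in the reference annotation (GRCm38) and the counting is not stated to use strand, so their reads may not be fully told apart.

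Other genes named by rank were lower in Setd7 control by modest amounts, and none of them passed the limma adjustment (adjusted p = 0.999 for each). Vgf encodes a secreted neuropeptide precursor induced by neurotrophins and activity. It had 8437, 7592, 8690 and 7805 counts in Setd7 control and 12074, 9305, 9730 and 10121 in GFP defeat. The groups did not overlap, and the Setd7 control mean of 8131 ± 517 (SD, n = 4) lay beside the GFP control mean of 8171. The log2 difference of Vgf was -0.34 ± 0.09 (SE). Lratd1 had a log2 difference of -0.32 ± 0.08, and Sertm1, a small membrane protein, one of -0.27 ± 0.07. St8sia4, an enzyme that adds polysialic acid to the adhesion molecule NCAM, had -0.30 ± 0.09. Kctd10, an adaptor of cullin ubiquitin ligases, had -0.23 ± 0.07, and L3mbtl2, a chromatin protein of a variant Polycomb complex, had -0.23 ± 0.07. These 5 genes did not overlap between groups. For them and for Vgf, chosen by their p in these libraries, that follows in part from the choice. Lemd1 (-0.65 ± 0.19) and Cited1, a transcriptional coactivator (-0.72 ± 0.22), had larger differences, but the highest Setd7 control library lay above the lowest GFP defeat library for each.

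The genes ranked highest in Setd7 control after Setd7 also fell short of the adjustment, with a limma adjusted p of 0.999 each. They too were chosen by their p, so a lack of overlap follows in part from the choice. Alas1 encodes the first enzyme of heme synthesis in non-erythroid cells. It had 1555, 1455, 1631 and 1710 counts in Setd7 control and 1352, 1299, 1367 and 1351 in GFP defeat, with no overlap. The log2 difference of Alas1 was 0.24 ± 0.06 (SE), and GFP control, at a mean of 1368, lay with GFP defeat. Mertk is a receptor with which microglia and astrocytes engulf debris and synapses. It had 1021, 1267, 1223 and 1196 counts in Setd7 control and 884, 912, 971 and 846 in GFP defeat. These values did not overlap either, and the log2 difference was 0.38 ± 0.11, while the GFP control mean of 1151 lay with Setd7 control. Tyms, the thymidylate synthase of DNA precursor synthesis, had means of 79.5 ± 10.7 and 47.6 ± 7.81 (SD, n = 4 each), with 78.0 in GFP control. Its log2 difference was 0.73 ± 0.22 (SE) and its groups did not overlap. Dennd2d had 0.85 ± 0.24, on means of 66.2 and 35.6 counts. Zcrb1, a protein of the minor spliceosome, had 0.33 ± 0.10, and the zinc finger proteins Zgpat and Zfp524 had 0.31 ± 0.09 and 0.44 ± 0.14. Cebpzos had 0.45 ± 0.14, but it overlaps Cebpz in the reference, so its counts are uncertain. Hif3a, a hypoxia-inducible factor subunit that glucocorticoids induce, had 465, 560, 525 and 326 counts in Setd7 control and 351, 347, 361 and 216 in GFP defeat. Its male replicates 4 were the lowest of each group and the groups overlapped, with a log2 difference of 0.56 ± 0.17.

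**Figure D2:**
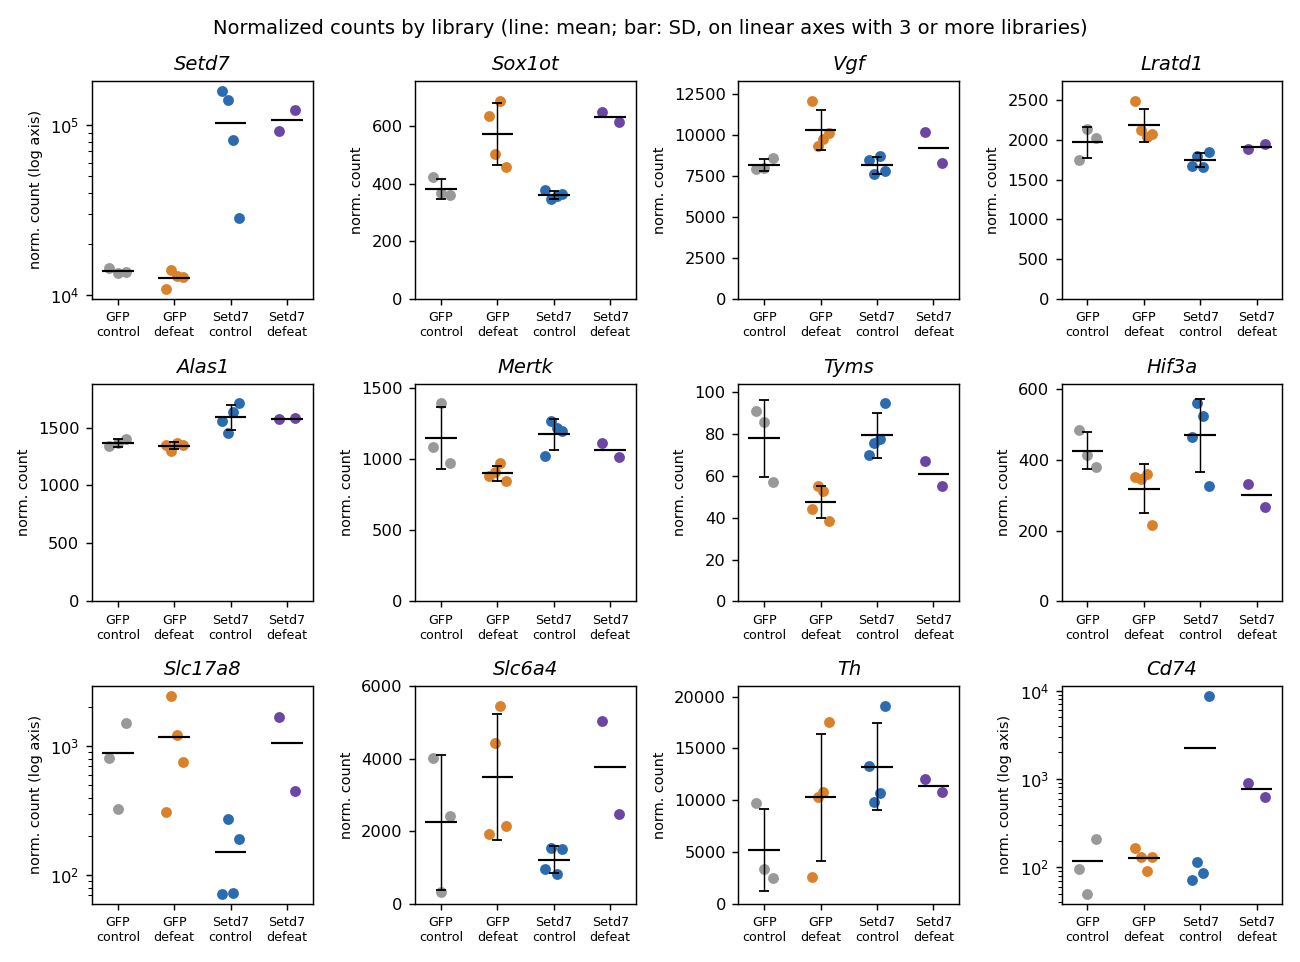
Normalized counts of 12 genes in each library of the 4 groups; points are libraries, lines are means and bars are SD on linear axes with 3 or more libraries (Setd7, Slc17a8 and Cd74 have log axes). Setd7 counts divide the libraries by virus and Sox1ot counts by defeat, Sox1ot having been chosen by its p between Setd7 control and GFP defeat. For Cd74 the Setd7 control group holds 1 library at 8725 and the rest at or below 114.

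Transcripts of the histone methylation machinery around Setd7 showed small differences. Of 26 genes listed under writers and erasers of lysine 4 methylation on histone H3, 13 were higher and 13 lower in Setd7 control. Not all of them encode enzymes for that mark. The median log2 difference of the list was 0.00, like that of all genes. None of the 26 reached an unadjusted p under 0.05, against 2.71% of all genes, and for 25 the interval lay within 1.5-fold. Over all genes that share was 39.0% from 30 up to 300 counts, 93.9% up to 3000 and 97.8% above. The members with the smallest p were Dpy30, a core subunit of the COMPASS methyltransferases (0.19 ± 0.13, SE), and Kdm5b, a demethylase of trimethylated lysine 4 (-0.10 ± 0.06). Genes for 14 proteins known as Setd7 substrates divided 7 to 7, with a median of -0.01 and 13 of 14 intervals within 1.5-fold. Among them Trp53, which encodes p53, had -0.14 ± 0.13 and Sirt1, a deacetylase, had 0.09 ± 0.07. Methylation of these proteins was not measured.

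A set of 12 genes had been named in earlier work on these libraries in both the Setd7 and the defeat comparison with GFP control. Since it was chosen on these samples, and both comparisons used the same GFP control libraries, its values are a description only. Set directly against each other, the groups gave a median log2 difference of 0.00 for these genes, 6 higher and 6 lower, within a range of -0.05 to 0.24. For 11 of the 12 the interval lay within 1.5-fold. They included Ttc14, at 2541, 2454, 2893 and 2594 counts in Setd7 control and 2600, 2427, 2820 and 2177 in GFP defeat. Those values intermingled, with a log2 difference of 0.07 ± 0.08 (SE), while the GFP control mean was 3559. The exception was Mir124a-1hg, the host transcript of a miR-124 precursor, a microRNA abundant in neurons. It had 1035, 1000, 1891 and 1302 counts in Setd7 control and 1103, 971, 1428 and 853 in GFP defeat. The groups overlapped over most of their range, and both means, 1307 ± 412 and 1089 ± 248 (SD, n = 4 each), were under the GFP control mean of 2469. Its log2 difference was 0.24 ± 0.17 (SE; 95% interval -0.12 to 0.61).

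The 18 cold-inducible and splicing regulators were chosen on these samples for low levels after defeat, so a higher level in the arm without defeat follows in part from the choice, and their counts are a description only. Of these, 15 were higher and 3 lower in Setd7 control, with a median log2 difference of 0.09. An unadjusted p under 0.05 was found for 4 of the 18, all higher, against 1.52% higher over all genes, and nothing is read from it. Clk1, a kinase of SR splicing proteins, had 0.29 ± 0.12 (SE) and Rbm3, an RNA-binding protein induced by cold, had 0.24 ± 0.10. The others were Rnpc3, a minor spliceosome protein, at 0.29 and Tia1, a stress granule protein, at 0.21. For all 18 the interval lay within 1.5-fold. Clk1 had a GFP control mean of 2324, against 1750 ± 278 in Setd7 control and 1426 ± 196 in GFP defeat (SD, n = 4 each). Rbm3 had 346, 371, 558 and 494 counts in Setd7 control and 347, 330, 410 and 390 in GFP defeat, so that the groups overlapped and the males of Setd7 control were highest.

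**Figure D3:**
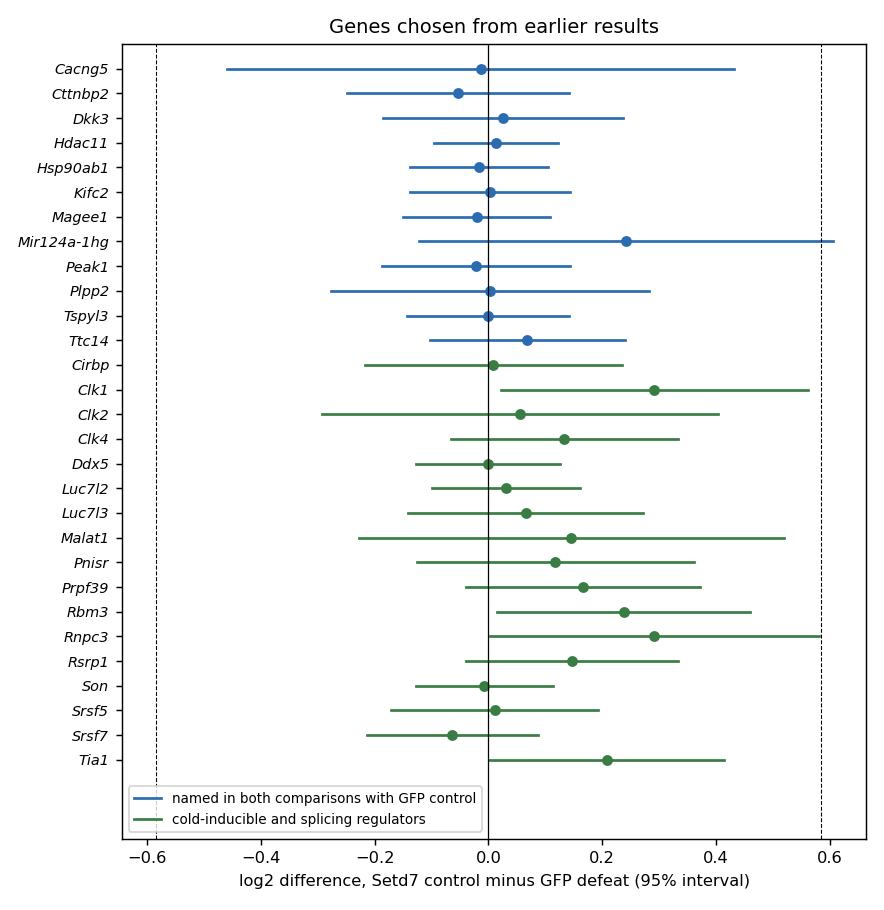
Log2 difference of Setd7 control minus GFP defeat with its 95% interval for 29 genes chosen from earlier results on these libraries (blue, 12 genes named in both comparisons with GFP control; green, the cold-inducible and splicing regulators, Ttc14 being drawn with the blue genes). Dashed lines mark 1.5-fold, and only the interval of Mir124a-1hg, ending at 0.61, crosses one.

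Genes of the stress response were mixed. Of 16 glucocorticoid response genes 10 were higher and 6 lower in Setd7 control, with a median of 0.11, and the median was -0.0034 without GFP defeat 1 and -0.0014 without Setd7 control 2. Hif3a and the metallothionein Mt2 (0.43 ± 0.18, SE), 2 of the 16, were higher with an unadjusted p under 0.05, against 1.52% of all genes. The groups overlapped for both Hif3a and Mt2. Fkbp5, a chaperone that limits glucocorticoid receptor activity, had 925, 828, 937 and 784 counts in Setd7 control and 801, 682, 839 and 935 in GFP defeat. The Fkbp5 groups overlapped, with a log2 difference of 0.10 ± 0.12. Among 24 stress peptides and their receptors 11 were higher and 13 lower, with a median of -0.02, which was 0.04 without Setd7 control 4. Oxtr, the oxytocin receptor, had 223, 226, 194 and 155 counts in Setd7 control and 320, 250, 250 and 412 in GFP defeat. It was the only member of that list whose groups did not overlap, against 2.35% of all genes, at -0.61 ± 0.28. Of 13 neurotrophin genes and receptors 8 were higher and 5 lower, with a median of 0.12, which was -0.011 without GFP defeat 1 and -0.038 without Setd7 control 1. Bdnf had 775, 880, 921 and 715 against 1266, 823, 671 and 1050 counts, overlapping widely, at -0.18 ± 0.17.

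Immediate early genes, which neuronal activity induces within minutes, were more often lower than higher in Setd7 control, 16 against 6 of 22, with a median of -0.11. None of the 22 had an unadjusted p under 0.05, against 2.71% of all genes. Nr4a3 had -0.35 ± 0.17 (SE), Jun -0.14 ± 0.08 and Fos 0.13 ± 0.19. The median was 0.05 without GFP defeat 1 and 0.04 without the 3 libraries GFP defeat 1, GFP defeat 4 and Setd7 control 4. Of 21 circadian clock genes 18 were lower and 3 higher, with a median of -0.07, and 19 intervals lay within 1.5-fold. Dbp, a clock output transcription factor, had 974, 835, 899 and 1093 counts in Setd7 control and 1140, 1181, 1177 and 1149 in GFP defeat. Its groups did not overlap, and its log2 difference was -0.30 ± 0.12, with a GFP control mean of 1168 beside that of defeat. Per1 had -0.19 ± 0.10. The time of day of collection is not given in the sources used here.

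Dopamine neuron markers were higher in Setd7 control for 25 of 26 genes, with a median of 0.25, but that median rested on 1 library. Th had 13299, 9801, 10728 and 19111 counts in Setd7 control and 2539, 10298, 10764 and 17550 in GFP defeat. Among these 8 libraries all but GFP defeat 1 lay between 9801 and 19111, and that library was far below them. Outside the comparison, GFP control 1 to 3 had 9760, 3392 and 2508, so low Th was not confined to GFP defeat 1. The log2 difference of Th was 0.61 ± 0.53 (SE), and it was -0.0029 without GFP defeat 1. Slc6a3, the dopamine transporter, had 0.58 ± 0.56, and -0.10 without that library. The median of the list was -0.04 without GFP defeat 1. The members with the smallest p depended less on it. With each library left out, Lmx1a (0.45 ± 0.25) ranged from 0.30 to 0.61 and Klhl1 (0.22 ± 0.16) from 0.087 to 0.33. Lmx1a had 553 counts in GFP defeat 1, the highest of that group. No member had an unadjusted p under 0.05, against 2.71% of all genes. Only 2 of the 26 intervals lay within 1.5-fold, so these data bound dopamine neuron genes loosely. GABA neuron markers divided 6 to 6, with a median of 0.00. Gata2, a transcription factor of midbrain GABA neurons, had -0.41 ± 0.19 and Pvalb, parvalbumin, had 0.31 ± 0.34.

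Genes of neuronal signalling divided nearly evenly in direction, apart from those of perineuronal nets. Their intervals within 1.5-fold stand beside shares over all genes of 39.0% from 30 up to 300 counts, 93.9% up to 3000 and 97.8% above. Of 27 excitability channels 12 were higher and 15 lower, with a median of -0.02 and 21 intervals within 1.5-fold. Kcna3, a voltage-gated potassium channel, had 1422, 1333, 1389 and 1461 counts in Setd7 control and 1962, 1430, 1606 and 1881 in GFP defeat. The groups overlapped slightly, the difference was -0.28 ± 0.09 (SE), and GFP control had a mean of 1195. Neurotransmitter receptors divided 13 to 15, with a median of 0.00 and 21 of 28 intervals within 1.5-fold. Synaptic vesicle genes divided 10 to 8, with a median of 0.01 and 16 of 18 within. Genes of perineuronal nets, the matrix around some neurons, divided 8 to 3, with a median of 0.09 and 6 of 11 within, and the median was -0.098 without GFP defeat 4 and -0.022 without Setd7 control 1.

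Slc17a8 had the largest negative difference among the 10 genes with the smallest p on the lower side. It encodes VGLUT3, a vesicular glutamate transporter found in serotonin neurons of the raphe and in other scattered neurons. It had 72.1, 275, 73.4 and 191 counts in Setd7 control and 309, 2443, 1220 and 756 in GFP defeat. The groups did not overlap, but the GFP defeat values ranged widely. The means were 153 ± 98.8 and 1182 ± 919 (SD, n = 4 each), the log2 difference was -2.81 ± 0.67 (SE), and the limma adjusted p was 0.999. Markers of the raphe, the serotonin nuclei that lie caudal and dorsal to the VTA, moved with it. Of the 6 raphe and hindbrain genes tested 5 were lower in Setd7 control and 1 was higher, at 0.61. The median of the 6 was -1.28, and 3 of them were at 0 in some library. Their summed counts were 1957 to 3659 in Setd7 control and 4599 to 11969 in GFP defeat, and their part in the Slc17a8 difference was not tested.

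Fev, Slc6a4 and Tph2, genes of serotonin neurons, showed the same ordering. Fev, the transcription factor that specifies serotonin neurons, had 59.0, 74.2, 29.1 and 73.4 counts in Setd7 control and 101, 332, 210 and 133 in GFP defeat. Slc6a4, the serotonin transporter, had 954, 1551, 832 and 1502 against 1931, 4449, 5463 and 2133. Tph2, the enzyme that starts serotonin synthesis in neurons, had 1044, 2017, 1096 and 1900 against 2562, 6373, 6292 and 2714. Over all genes, 1.26% had groups without overlap and Setd7 control lower, against 3 of the 6 raphe and hindbrain genes tested. These were Fev, Slc6a4 and Tph2, for which no Setd7 control library reached the lowest GFP defeat library. Their log2 differences were -1.64 ± 0.58, -1.44 ± 0.61 and -1.50 ± 0.65 (SE), each with a limma adjusted p of 0.999. Htr5b, a serotonin receptor gene, had -0.91 ± 0.29, on means of 31.8 and 61.0 counts. Tph2 and Htr5b were added after their values were seen. The serotonin receptor genes Htr1a, Htr1b and Htr2c did not show this ordering. They are among the 28 neurotransmitter receptors, of which 0 had groups without overlap, against 2.35% of all genes. The lowest log2 difference of those 28 was -0.26. GFP control means lay between the groups, at 114 for Fev, 2250 for Slc6a4 and 2935 for Tph2, with a wide spread (SD 1858 for Slc6a4, n = 3). The median of the raphe list was -2.31 without GFP defeat 1, GFP defeat 4 and Setd7 control 4.

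Other excitatory and regional markers differed widely among libraries. Of 11 excitatory neuron markers 4 were higher and 7 lower, with a median of -0.36, which stayed between -0.57 and -0.06 with each library left out and was 0.27 without those 3 libraries. Slc17a7, the vesicular glutamate transporter of cortex and thalamus, had 117, 114, 132 and 97.9 counts in Setd7 control and 962, 304, 99.8 and 746 in GFP defeat. Its groups overlapped only through GFP defeat 3, and the log2 difference was -1.74 ± 0.82 (SE). Tcf7l2, a transcription factor of the thalamus, had 981, 949, 1320 and 952 against 982, 1349, 1449 and 6575 counts. GFP defeat 4 alone was far above the rest, and the difference was -0.86 ± 0.43. Of 12 thalamic markers 11 were lower in Setd7 control, with a median of -0.12, which was 0.13 without the 3 libraries. Gbx2, a thalamic factor, had -2.92 ± 1.17 and was at 463 in GFP defeat 4 and at or below 70.7 in the other 7 libraries of the comparison. Of 10 hypothalamic markers 9 were higher, with a median of 0.57, which was -0.17 without Setd7 control 3 and 2.04 without the 3 libraries. Pmch, melanin-concentrating hormone, was at 1428 in Setd7 control 3 and at 345 in GFP defeat 1, and its log2 difference was 3.17 ± 1.55. Among 7 markers of red nucleus and tectum 4 were higher, with a median of 0.68, and among 7 of cortex and hippocampus 3 were higher, with a median of -0.10. Without those 3 libraries these medians were -0.01 and 0.56. The first was 0.02 without GFP defeat 1, or without GFP defeat 2, and the second was 0.17 without GFP defeat 1. Barhl2 had 1.12 ± 0.58, and Lhx2, which is on both lists, had -2.03 ± 0.71. Lhx2 had 5.46, 20.03, 28.05 and 24.5 counts in Setd7 control and 40.3, 28.1, 72.8 and 311 in GFP defeat, so that the groups only just failed to overlap.

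**Figure D4:**
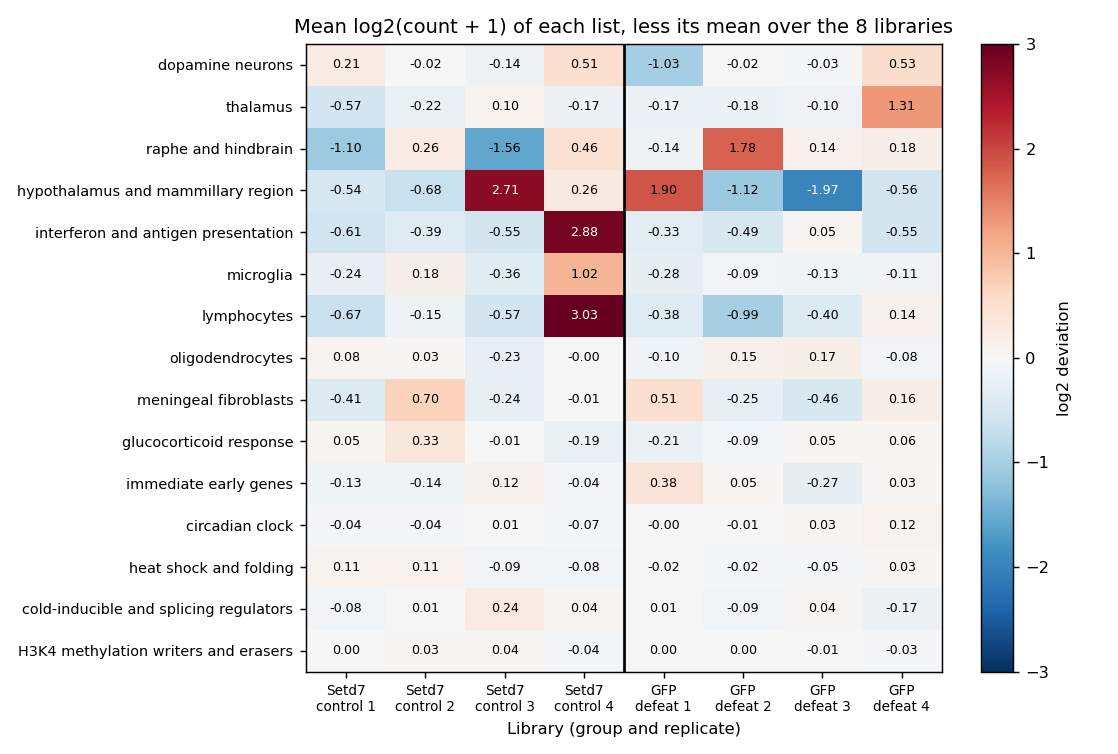
Mean log2(normalized count + 1) of 15 gene lists in each of the 8 libraries, as the deviation from the list's mean over the 8 libraries (red high, blue low, values printed in each cell). Setd7 control 4 reads 2.88 for interferon and antigen presentation genes, GFP defeat 1 reads -1.03 for dopamine neurons, and the H3K4 methylation genes lie between -0.04 and 0.04.

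Genes of oligodendrocytes, astrocytes and vessels mostly had intervals within 1.5-fold, and those of meninges, choroid plexus and blood mostly did not. Over all genes the share was 97.8% at 3000 counts or more, 93.9% from 300 up to 3000, 39.0% from 30 up to 300 and 0.0% under 30. The part of gene level in the contrast between these lists was not tested. All 20 oligodendrocyte genes had intervals within 1.5-fold, with 17 lower and 3 higher in Setd7 control and a median of -0.07. Trf, transferrin, had -0.18 ± 0.09 (SE) and Mag, a myelin glycoprotein, -0.15 ± 0.11. Oligodendrocyte precursors had 10 of 14 genes lower, a median of -0.08 and 13 intervals within 1.5-fold. Astrocyte genes divided 9 to 6, with a median of 0.01 and 13 of 15 within, among them Glul, glutamine synthetase, at 0.06 ± 0.09. Endothelial and mural genes divided 10 to 9, with a median of 0.01 and 15 of 19 within. Meningeal fibroblast genes divided 8 to 8, with a median of 0.02, but only 1 of 16 intervals lay within 1.5-fold and the median ranged from -0.19 to 0.26 with each library left out. Choroid plexus genes (4 higher, 5 lower, median -0.10) and the 3 blood genes tested (all lower, median -0.25) were also loosely bounded. The choroid plexus median was 0.18 without GFP defeat 4, and likewise without Setd7 control 4, and the blood median was 0.079 without GFP defeat 3.

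Immune genes were higher in Setd7 control through 1 library. Each of the 28 genes of interferon signalling and antigen presentation was higher, by a median of 0.63, and without Setd7 control 4 the median was -0.20. Their summed counts were 9493 to 76800 in Setd7 control and 9492 to 11818 in GFP defeat. Cd74, the invariant chain of MHC class II molecules, had 71.0, 114, 86.3 and 8725 counts in Setd7 control and 164, 130, 90.4 and 129 in GFP defeat. Apart from Setd7 control 4 the Setd7 libraries lay at or below 114, and the log2 difference of 1.15 ± 1.15 (SE) was -0.54 without it. Of 18 microglia genes 16 were higher, with a median of 0.24, which was -0.03 without that library, and Ctss, a lysosomal protease of microglia, was at 7066 there and at most 2195 in the other 7. Reactive glia genes (13 of 17 higher, median 0.25) had a median of -0.08 without it. The 5 lymphocyte genes tested were all higher, with a median of 0.57, and Cd8a, a marker of cytotoxic T cells, had 95.8 counts in Setd7 control 4 and at most 8.90 in the other 7. The lymphocyte median was -0.39 without that library. Setd7 control 4 also had the lowest Setd7 of its group, and the part of these transcripts in that was not tested.

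For housekeeping pathways, intervals within 1.5-fold stand beside shares over all genes of 39.0% from 30 up to 300 counts, 93.9% up to 3000 and 97.8% above. Of 45 cytosolic ribosomal protein genes 21 were higher and 24 lower, with a median of -0.03 and 40 intervals within 1.5-fold. Of 37 oxidative phosphorylation genes 26 were higher, with a median of 0.03 and 36 within. The complex I subunits Ndufv2 and Ndufs7 lay on opposite sides, at 0.17 ± 0.07 and -0.20 ± 0.08 (SE), and only for Ndufs7 of the pair did the groups not overlap. Of 24 heat shock and folding genes 13 were higher, with a median of 0.01 and 22 within. Hspe1, the mitochondrial cochaperonin, had 633, 743, 711 and 669 counts in Setd7 control and 561, 581, 485 and 583 in GFP defeat. It was the only member of that list without overlap, against 2.35% of all genes, at 0.32 ± 0.10. Of 18 cholesterol synthesis genes 13 were lower, with a median of -0.05 and 17 within. No member of any of the 36 lists had a limma adjusted p under 0.05.

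**Figure D5:**
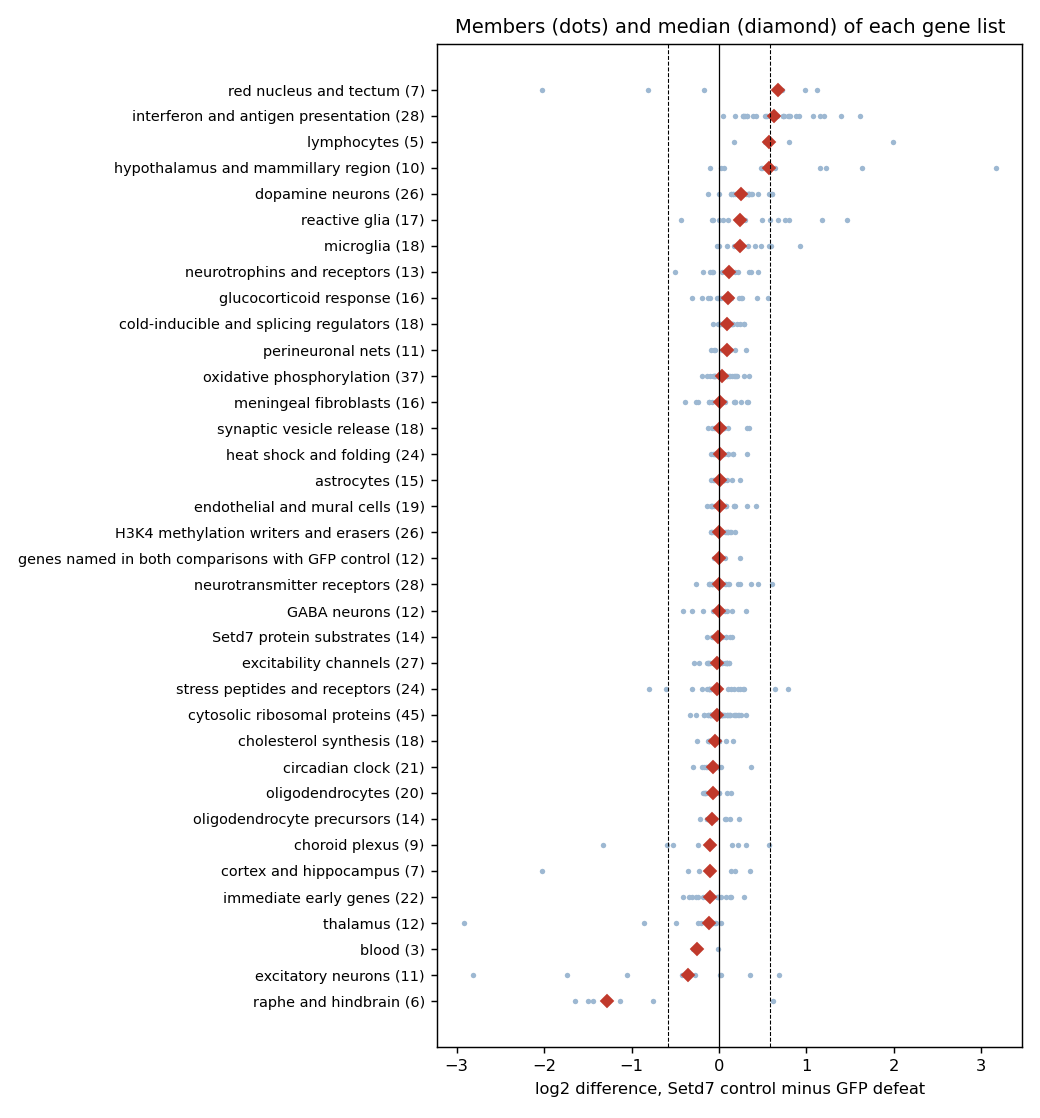
Log2 difference of Setd7 control minus GFP defeat for every tested member (dots) and the median (diamond) of the 36 gene lists, with the number of tested members in parentheses and dashed lines at 1.5-fold. Medians run from -1.28 for raphe and hindbrain to 0.68 for red nucleus and tectum, and most lie close to 0.

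The difference between the groups was also compared between females and males, with 2 libraries of each sex in each group. limma called no gene (0.0%) at an adjusted p under 0.05, with 473 (2.66%) at an unadjusted p under 0.05. edgeR called none (0.0%; 526, or 2.96%, unadjusted) and DESeq2 called 8 (0.0451%; 2.09% unadjusted), namely Shisa6, Tac1, Tac2, Plin4, En2, Casr, Hcrt and Csf2rb2. Shisa6 encodes an auxiliary subunit of AMPA receptors. It had 1858 and 2491 counts in Setd7 control females, 1343 and 1171 in GFP defeat females, 1200 and 1209 in Setd7 control males and 1458 and 2066 in GFP defeat males. The log2 difference was 0.78 in females and -0.53 in males, which differ by 1.31 ± 0.25 (SE; DESeq2 adjusted p = 0.0016, limma adjusted p = 0.999). En2, a midbrain transcription factor, had a difference of 1.01 in females and -0.32 in males. Hcrt, the orexin precursor of the lateral hypothalamus, rested on Setd7 control 3 (2251 counts) and GFP defeat 1 (968), with the other 6 at or below 261. Leaving out Setd7 control 3, which left 1 male in that group assumed to vary like the others, gave 32 limma calls. For Setd7 itself the log2 difference was 3.59 in females and 1.905 in males, a difference of 1.69 ± 0.52 (limma adjusted p = 0.999).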

How the data were processed

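RNA of VTA punches was extracted with RNeasy Micro kits and made into TruSeq RiboZero libraries, per the labels' protocols. Per the submitters' processing notes, the tools were Bowtie2, featureCounts and DESeq2 with the build GRCm39, and no versions are given in the sources used here. The deposited signal is 1 table of gene counts divided by size factors; all values came within 0.01 of a whole number of reads, so reads could be recovered. Recovered depth was 26.5 to 50.8 Mreads (megareads).

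Libraries were grouped by the labels. In R 4.3.3, limma 3.58.1 with a trend was fitted to log2(normalized count + 1) of all 13 libraries, with 4 group means and sex, two-sided, and p-values were adjusted by Benjamini-Hochberg over 17755 genes. Fold changes are on that scale and understate those of low genes. The Setd7 level was tested by an exact permutation test. edgeR 4.0.16 and DESeq2 1.42.0 on recovered reads were alternatives, beside other pseudocounts (0.5, 5), filters, TMM scaling, fewer covariates or libraries, robust fitting and leaving out each library. The scripts were tested on simulated data.

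The text names Setd7, then up to 15 genes a direction past adjustment, filled to 10 by the smallest p, with a mean of at least 30 counts. It also names 2 members a list, 3 genes for sex and 10 fixed genes. For genes and list members named by their p, a lack of overlap between groups follows in part from the choice. Predicted and sex-linked marker genes were left out. One list member that the rule names is not reported here. Members and lists were chosen with earlier results of these data known.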

Additional observations from a re-analysis of the deposited data

Results flagged for a closer look

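In 20 of 194 gene-and-group sets of 4 libraries, 1 library lay far from the other 3, measured as its gap to the nearest library over the whole range. Chance flags about 1 in 20 such sets.

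Setd7 control 4 was far the highest of its group for Cd74 (8725 normalized counts), Ctss (7066), Serpina3n (1794), Stat2 (1673) and Ifit2 (1446). Setd7 control 3 was far the highest for Hcrt (2251), Pmch (1428), Tcf7l2 (1320), Nkx2-1 (578) and Rpl32 (242). GFP defeat 1 was far the highest of its group for Ifit2 (976), Hcrt (968), Nkx2-1 (454) and Pmch (345). GFP defeat 4 was far the highest for Tcf7l2 (6575), Nr4a3 (469), Gbx2 (463) and Lhx2 (311), and far the lowest for Hif3a (216). GFP defeat 3 was far the highest for Htr5b (79.9).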

How the results depend on the processing

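No paired analysis was possible because the numbers in the labels name single libraries and the groups share none. The limma calls numbered 0 to 1 when each library was left out, 1 without GFP defeat 1, GFP defeat 4 and Setd7 control 4 together (Setd7, at 3.14 with an adjusted p of 0.00105), and 2 with DESeq2. The other settings of that fit made no call. For Setd7 the limma adjusted p ranged from 1.41e-05 without Setd7 control 4 to 0.999 with robust fitting. The log2 difference in mean Setd7 level was 2.45 to 3.27 with each library left out, with an exact permutation p of 0.0571 without any 1 GFP defeat library, and 3.17 (p = 0.1) without the 3 libraries. The design without the 3 libraries cannot go below 0.1; without any 1 Setd7 control library the p was 0.0286. Filters, covariates, robust fitting and the other 5 libraries play no part in that test and give no value for it. Genes with an interval within 1.5-fold numbered 11103 to 11342 with each library left out. Sex difference calls numbered 8 with DESeq2 and 0 to 32 with each library left out.

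Of the genes named, 27 values changed sign. Without the 3 libraries the log2 difference was -0.0036 for Th, -0.23 for Slc6a3, -0.32 for Cd74, 0.22 for Bdnf, 0.18 for Slc4a1, 0.023 for Tnr, -0.089 for Cplx1, -0.013 for Ctss, -0.015 for Serpina3n and -0.00032 for Stat2. With each library left out it ranged from -0.54 to 1.94 for Cd74, -1.22 to 3.41 for Hcrt, -0.10 to 0.91 for Slc6a3, -0.0029 to 0.98 for Th, -0.64 to 0.15 for Slc4a1 and -0.60 to 0.079 for Alas2. It ranged from -0.023 to 0.58 for Pvalb, -0.054 to 0.36 for Shisa6, -0.0078 to 0.25 for Fos, -0.011 to 0.13 for Ttc14 and -0.0063 to 0.10 for Glul. The cause was not tested. No gene under 30 counts had an interval within 1.5-fold, and the part of depth in that was not tested.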
